A study of Mus musculus with 12 samples.

Results

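The genes described here are the replication-dependent histone genes of the mouse, which encode the linker histone H1 and the core histones H2A, H2B, H3 and H4. They were chosen by symbol: H1f followed by 1 to 5, or H2ac, H2bc, H3c or H4c followed by a number. This gave 66 of the 56941 genes in the deposited tables, 5 of them H1 genes, 18 H2A, 18 H2B, 12 H3 and 13 H4. RNA was measured by sequencing in 12 wells of C2C12, a mouse myoblast line that fuses into myotubes in differentiation medium. The ChR2 group held 6 wells of the ChR2::tdTomato line, which carries a light-gated cation channel joined to a red fluorescent protein, and the other 6 wells held wild-type (WT) cells. All 12 shared 1 culture scheme on a fibrin gel 1 mm thick made with 8 mg of fibrinogen per mL: 2 days in growth medium, then 6 days in differentiation medium, which held horse serum at 10% and IGF-1. Both media held aminocaproic acid. The labels give no promoter or clone for the transgene, mention no light, and do not say whether wells of the same line were separate cultures. The p-values below therefore measure only the spread between wells, and the transgene cannot be told apart from other differences between the lines.

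A dividing cell makes new histones in S phase to package the DNA it is copying, and it draws them from clusters of intronless genes. Most messages of these genes end without a poly(A) tail. They end instead just after a short hairpin, the histone stem-loop, which is bound by the stem-loop binding protein Slbp and cut downstream with the help of the U7 small nuclear ribonucleoprotein. The same genes can also give longer, polyadenylated messages that end at a poly(A) signal beyond the stem-loop, and such forms are known from cells that have left the cell cycle. Per the labels, library preparation began with poly(A) selection, a step that captures a message ending at the stem-loop poorly, but low-input samples were prepared by depletion of ribosomal RNA instead, and which ones is not named. In RNA from a whole well, fewer cycling cells and less histone message per cell cannot be told apart.

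The stem-loop was looked for in the transcript models of GENCODE M21 (build GRCm38), which held all 66 Ensembl identifiers of the deposited tables. The letters searched were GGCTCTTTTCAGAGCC, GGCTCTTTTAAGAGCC, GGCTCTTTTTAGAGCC, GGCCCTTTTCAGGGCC, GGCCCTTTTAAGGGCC and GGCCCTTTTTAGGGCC, on both strands. They occurred in a model of 41 of the 66 genes and in 0.0799% of the 58797 protein-coding models of the annotation, and in 0 models on the opposite strand. All 41 sites lay in a 3′ UTR. Of the 25 genes with no match, 15 had models with at most 30 bases after the stop codon, so the letters could hardly be found there. The sites below belong to the genes whose levels carry the results, with the stem-loop in capitals and up to 7 bases on each side.

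H1f2: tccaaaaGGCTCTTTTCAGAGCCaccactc
H1f4: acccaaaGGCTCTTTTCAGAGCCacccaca
H2ac25: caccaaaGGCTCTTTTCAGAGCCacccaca
H2ac24: aaaaaaaGGCTCTTTTCAGAGCCatc
H2bc6: aaccaaaGGCTCTTTTCAGAGCCacccaac
H4c9: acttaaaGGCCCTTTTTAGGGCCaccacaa
H4c14: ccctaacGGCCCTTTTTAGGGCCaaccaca
H4c8: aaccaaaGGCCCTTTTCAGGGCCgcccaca

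The sites of H1f2, H1f4, H2ac25, H2ac24 and H2bc6 hold the same stem-loop, which 26 members have. The sites of H4c9 and H4c14 have another stem and loop, found in those 2 members only. On GRCm38 the sites lie at chr13:23739505-23739534 (+) for H1f2, chr13:23621775-23621804 (-) for H1f4, chr11:58955165-58955194 (+) for H2ac25 and chr13:21833026-21833051 (-) for H2ac24. Those of H2bc6, H4c9, H4c14 and H4c8 lie at chr13:23585524-23585553 (-), chr13:22040959-22040988 (-), chr3:96262932-96262961 (-) and chr13:23531451-23531480 (+). Of all members, 53 lie on chromosome 13, 10 on chromosome 3, 2 on chromosome 11 and 1 on chromosome 6.

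The models differ in how far they run past the stem-loop. In 20 members the model ended within 60 bases of it, among them H2ac24, whose model stops 3 bases after, and H4c8, which stops 46 bases after. In another 20 members it ran on for at least 100 bases. The distance was 840 bases for H1f2, 1153 for H1f4, 1643 for H2ac25, 1861 for H2bc6, 330 for H4c9 and 1257 for H4c14. The poly(A) signals AATAAA or ATTAAA stood in the last 50 bases of at least 1 model in 16 of the 66 members, counted by gene. Counted by model, which is another unit, they stood there in 50.2% of all protein-coding models. H2bc4 and H2bc21, both H2B genes that recur below, had 742 and 2192 bases after the stop codon with none of the searched stem-loops.

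Promoters were compared over the 250 bases before the start site in RefSeq (GRCm38.p6), which gave 58 promoters for 57 of the genes. The CCAAT box was present on either strand in 82.8% of them, against 33.8% of all 32851 promoters in the table. It was in all 5 H1, 17 H2A and 15 H2B promoters, and in 3 of 11 H4 promoters. The octamer ATTTGCAT was present in 7 of 15 H2B and 6 of 17 H2A promoters and in 0 of those of H1, H3 and H4, against 1.6% of all promoters. TATAAA was present in 48.3% of the members' promoters, against 12.4% of all. Several H2A and H2B genes lie head to head with overlapping windows, so the same site can count for both classes. The octamers of H2ac1, H2ac8 and H2ac12 are those of H2bc1, H2bc8 and H2bc12 read from the other strand. A match is a description of the letters and not of a factor's binding. The promoters of H1f4 and H2bc12, an H2B gene, show the contrast between a promoter without and with the octamer. They lie at chr13:23622559-23622808 (-) and chr13:22035571-22035820 (+), and the capitals mark the 3 motifs on either strand.

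H1f4: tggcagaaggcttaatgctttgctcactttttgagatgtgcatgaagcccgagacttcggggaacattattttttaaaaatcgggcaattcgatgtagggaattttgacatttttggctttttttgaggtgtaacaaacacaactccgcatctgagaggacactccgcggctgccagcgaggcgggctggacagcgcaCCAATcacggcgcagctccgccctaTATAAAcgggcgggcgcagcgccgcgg
H2bc12: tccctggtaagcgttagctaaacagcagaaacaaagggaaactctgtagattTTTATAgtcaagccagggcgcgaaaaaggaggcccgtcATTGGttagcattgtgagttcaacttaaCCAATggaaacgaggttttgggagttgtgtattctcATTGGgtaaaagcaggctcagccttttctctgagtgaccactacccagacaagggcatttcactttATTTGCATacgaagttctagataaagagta

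The 10 libraries compared held from 7388761 to 13628569 estimated counts. The markers of skeletal muscle chosen for this description were detected in all 10, 8 of 8, with 7 not called and 1 lower in ChR2 (Myog, log2 fold change -0.67, edgeR adjusted p = 0.00192). Of the fibroblast markers 4 of 4 had counts, chiefly Dcn, a matrix proteoglycan, with sums of 81.6 to 109 CPM in ChR2 and 44.5 to 114 CPM in WT against 9564 to 11442 and 7243 to 12426 CPM for muscle. Of the blood markers 2 of 3 had counts, chiefly Cd68, with sums of 2.6 to 6.04 CPM in ChR2 and 4.47 to 8.63 CPM in WT. The tested markers of both lists, Dcn, Pdgfra and Cd68, were not called (edgeR, adjusted p = 0.206, 0.968 and 0.111), and their part in the histone levels was not tested. The endothelial and the glial and neuronal markers summed to at most 0.287 CPM in any of the 10 libraries, and Epcam of epithelium, Hbb-bs of red blood cells and Rbfox3 of neurons were at 0 counts. WT wells 2 and 5 had 1061068 and 2809669 counts. Levels of a gene across wells are given in CPM, counts scaled to a common library size with TMM factors. WT wells 2 and 5 held 386917 and 95973 CPM of other RNAs without a poly(A) tail, chiefly 7SL, the RNA of the signal recognition particle, against 25.4 to 447 CPM in the other libraries. Before scaling this was 27.2% and 9.33% of their counts, and the TMM factor of 0.702 raises the CPM of WT well 2. These 2 wells were therefore left out of the comparison of the lines and are described at the end. The 447 CPM belonged to ChR2 well 4, and the other 9 libraries held at most 61.7.

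How much of each message was present is given first on a scale that allows genes to be compared, TPM, the share of transcripts after correction for length. Averaged over the 10 libraries, 3 genes held most of the signal: H2ac24 at 385 TPM, H1f2 at 136 TPM and H2bc4 at 92.9 TPM. H2ac19, H2bc12, H2bc13 and H2ac25 followed at 16.9, 16, 15.2 and 9.34 TPM. The most abundant H4 genes were H4c9 at 6.88 TPM and H4c8 at 2.44 TPM, and the most abundant H3 genes were H3c10 at 1.8 TPM and H3c15 at 1.66 TPM. H1f2, H2bc4 and H2ac24 together took 81.3% to 87.9% of the members' counts in every one of the 10 libraries. At the other end, 23 members never rose above 3 counts in any of them, the number taken as the floor of detection, which stands for 0.227 to 0.431 CPM depending on the library. H2ac1 had 0 counts in all 12 libraries.

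Only 17 of the 66 genes passed the filter on low counts and were tested, and the 49 others had a mean of at most 0.693 CPM. The 17 were 3 H1, 5 H2A, 6 H2B, 1 H3 and 2 H4 genes. Of these, 6 were higher in ChR2 and 0 were lower in edgeR's quasi-likelihood test at a Benjamini-Hochberg adjusted p under 0.05 over all 13484 genes tested. Among all genes tested, 35.2% were called, 18.9% as higher and 16.3% as lower in ChR2. The share of tested histone genes called in either direction was also near this, at 35.3%, so the number called is no result about the family. By direction, 35.3% called higher stands beside 18.9% over all genes, and 0 called lower beside 16.3%, with only 17 members tested. The median log2 fold change of these 17 was 0.69, with 16 estimates above 0. Over all genes tested it was 0.00, with 6723 of 13484 above 0. At an unadjusted p under 0.05, 8 tested members were higher and 0 lower, and by the Wald test of DESeq2 7 were called higher and 0 lower. Shares over all genes at that threshold and by that test are not given here, so these counts are no result about the family either. The 6 genes were H1f4, H2ac25, H2bc6, H2bc21, H4c9 and H4c14. All 6 are among the 27 members whose model runs at least 100 bases past the stem-loop or ends with a poly(A) signal, of which 11 were tested, while 6 of the other 39 members were tested. Of their 50-base windows, the called genes shared 0% to 32% with other transcripts, and the 6 tested among the 39 shared 30.6% to 100%. The kind of model and the ambiguity of reads were thus not told apart. H2bc4, with 742 bases after the stop codon, counts among the 39. In 3 limma fits on log2 TPM, made with a pseudocount of 1 or 0.1 over filtered genes and with 1 over unfiltered genes, only H2ac25 and H4c9 of the 6 were called, and H1f4, H2bc6, H2bc21 and H4c14 were not (limma, adjusted p from 0.0805 to 0.179). The filter decides which members could be called, so these counts describe the genes measured and not the family.

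Among the H1 genes, whose products bind the linker DNA between nucleosomes, H1f2 was by far the most abundant. Its level in ChR2 wells 1 to 6, in that order here and below, was 159, 159, 136, 213, 151 and 157 CPM, and in WT wells 1, 3, 4 and 6 it was 155, 153, 99.9 and 104 CPM. WT wells 1 and 3 lay among the ChR2 wells and WT wells 4 and 6 below them all. The means were 162 ± 26.3 (SD, n = 6) and 128 ± 30.4 CPM (SD, n = 4), a log2 fold change of 0.34 ± 0.15 (SE) that was not called (edgeR quasi-likelihood test, Benjamini-Hochberg adjusted p = 0.0975). H1f4 was far less abundant, at 1.2 TPM against 136 TPM for H1f2. It gave 1.42, 1.59, 1.95, 4.17, 1.42 and 2.44 CPM in the ChR2 wells and 1.56, 1.13, 0.424 and 0.834 CPM in the WT wells. ChR2 well 4 was the highest, and WT well 1 overlapped the lowest ChR2 wells. H1f4 rose in ChR2 by 1.10 ± 0.40 (SE) on the log2 scale (edgeR quasi-likelihood test, Benjamini-Hochberg adjusted p = 0.047). It was no longer called after leaving out ChR2 well 2, 3, 4 or 6, or WT well 3, 4 or 6, with adjusted p up to 0.116. H1f3 gave a log2 fold change of 0.60 ± 0.33 and was not called (edgeR, adjusted p = 0.177), and H1f1 and H1f5 were under the filter.

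H2ac25, an H2A gene outside the large clusters, had the smallest p of the tested members. Its level was 14.6, 17.3, 21.2, 19.4, 16.2 and 20 CPM in the ChR2 wells and 9.92, 9.29, 9.41 and 9.78 CPM in the WT wells. The groups did not overlap, and the 4 WT wells differed among themselves by less than 1 CPM. H2ac25 was the only one of the 17 tested members without overlap, against 14.3% of all genes tested that were higher in ChR2 without overlap and 10.3% that were lower. It rose from 9.6 ± 0.298 (SD, n = 4) to 18.1 ± 2.52 CPM (SD, n = 6), by 0.91 ± 0.13 (SE) on the log2 scale (edgeR quasi-likelihood test, Benjamini-Hochberg adjusted p = 1.67e-04). H2ac25 was called whichever of the 10 wells was left out, with log2 fold changes from 0.86 to 0.96. The H2ac25 model shares 31.5% of its 50-base windows with Trim17, a gene that overlaps it on the same strand. Trim17 itself was measured at 1.42 CPM in ChR2 and 0.746 CPM in WT on average (edgeR, log2 fold change 0.93, adjusted p = 0.0708), and its part in the count of H2ac25 was not tested.

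H2ac24 was the most abundant member per length, and its WT wells differed widely. It gave 99.7, 143, 104, 175, 86.4 and 78.7 CPM in the ChR2 wells. In WT wells 1, 3 and 4 it gave 22.5, 40.3 and 33.8 CPM, below every ChR2 well, but WT well 6 gave 115 CPM, more than 4 of the 6 ChR2 wells. The log2 fold change of 1.10 ± 0.46 (SE) was not called (edgeR quasi-likelihood test, Benjamini-Hochberg adjusted p = 0.0933). Without WT well 6 it was 1.82 and was called (adjusted p = 0.00178), and over the other libraries left out the adjusted p ran up to 0.21. Of its 50-base windows, 93.1% also occur in H2ac23, so reads of the pair can hardly be told apart. H2ac23 had 2 counts at most in any of the 10 libraries, and the sum of the pair equalled H2ac24 in all but ChR2 well 2, where the 2 counts were found.

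H2ac18 and H2ac19, a pair of near-identical H2A genes on chromosome 3, are better read as 1 quantity. All windows of both occur in other annotated transcripts, and single wells assigned the reads to 1 gene of the pair only, as in WT well 3, where H2ac19 had 0 CPM and H2ac18 5.07 CPM. Their sum was 7.16, 5.55, 7.93, 9.34, 7.67 and 10.1 CPM in the ChR2 wells and 4.68, 5.07, 7.63 and 6.22 CPM in the WT wells. The groups overlapped, and neither gene was called (edgeR, adjusted p = 0.779 and 0.601). H2ac6, with 1.23 ± 0.521 CPM (SD, n = 6) in ChR2 and 0.722 ± 0.668 (SD, n = 4) in WT, was not called either.

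Of the H2B genes, H2bc4 was the most abundant and was not called. It gave 70.3, 80.3, 66.9, 96.7, 68 and 71.8 CPM in the ChR2 wells and 69.7, 72.5, 55.6 and 62.6 CPM in the WT wells, with WT wells 1 and 3 inside the ChR2 range. Its log2 fold change was 0.22 ± 0.12 (SE; edgeR quasi-likelihood test, Benjamini-Hochberg adjusted p = 0.162). H2bc21 gave 4.83, 4.42, 6.24, 3.31, 6.17 and 6.05 CPM in the ChR2 wells and 2.85, 3.19, 3.39 and 3.41 CPM in the WT wells. Here ChR2 well 4, the highest for most members, was the lowest of its line and lay inside the WT range. H2bc21 rose by 0.69 ± 0.21 (SE) on the log2 scale (edgeR quasi-likelihood test, Benjamini-Hochberg adjusted p = 0.0207). Of its 50-base windows, 0% occur in another transcript of the annotation. The call was lost without ChR2 well 5, WT well 1 or WT well 3, with adjusted p up to 0.0565.

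H2bc6 stood at 1.42, 2.49, 2.47, 3.88, 2.33 and 1.59 CPM in the ChR2 wells and at 1.65, 0.844, 1.02 and 0.986 CPM in the WT wells. WT well 1 lay above ChR2 wells 1 and 6. The log2 fold change was 1.04 ± 0.33 (SE; edgeR quasi-likelihood test, Benjamini-Hochberg adjusted p = 0.0242), and the call was lost without WT well 3, 4 or 6, with adjusted p up to 0.0747. The models of H2bc6 and H1f4 overlap on the same strand, and 23.8% of the windows of H1f4 are shared with H2bc6, so reads there could belong to either gene. H2bc12, H2bc13 and H2bc23 were tested and not called, at log2 fold changes of 0.07, 0.68 and 0.73 with SE of 0.28, 0.71 and 0.56 (edgeR, adjusted p = 0.865, 0.486 and 0.324). Of their windows, 74.2%, 82.8% and 97.3% occur in other annotated transcripts, so reads there could belong to other genes.

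H3 messages were close to the floor. H3c15 was the only H3 gene tested, at 1.25, 1.36, 1.56, 0.862, 0.167 and 0 CPM in the ChR2 wells and 1.01, 2.35, 0.509 and 1.59 CPM in the WT wells. The groups overlapped throughout, and its log2 fold change of -0.68 ± 0.64 (SE) was the only estimate below 0 among the tested members (edgeR, adjusted p = 0.436). Of the H3c15 windows, 63.5% also occur in Gm20634, as do 100% of those of H3c14, an H3 gene with the same printed site. In ChR2 well 6, where H3c15 had 0 CPM, H3c14 had 16 counts, its only counts in any library. How reads were split between these copies was not tested, so the H3c15 estimate is uncertain. H3c10, the other H3 gene of highest TPM, had at most 10 counts in any of the 10 libraries.

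Both tested H4 genes rose in ChR2. H4c9 gave 2.75, 5.1, 2.34, 6.18, 3.17 and 3.82 CPM in the ChR2 wells and 1.38, 2.72, 1.02 and 1.29 CPM in the WT wells, where well 3 alone reached the lower ChR2 wells. The difference was 1.27 ± 0.34 (SE) on the log2 scale (edgeR quasi-likelihood test, Benjamini-Hochberg adjusted p = 0.0108), and it was called whichever of the 10 wells was left out, with adjusted p from 0.00472 to 0.0293. H4c14 gave 3.5, 2.61, 2.34, 1.58, 3.33 and 2.55 CPM against 1.01, 1.03, 2.12 and 1.59 CPM. ChR2 well 4 was again the lowest of its line and lay between the WT wells. The difference was 0.89 ± 0.30 (SE; edgeR quasi-likelihood test, Benjamini-Hochberg adjusted p = 0.0311), and the call was lost without ChR2 well 1 or 5 or WT well 1 or 3, with adjusted p up to 0.0987. Only 1.01% of the windows of H4c14 occur elsewhere, against 28.9% for H4c9.

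**Figure D1:**
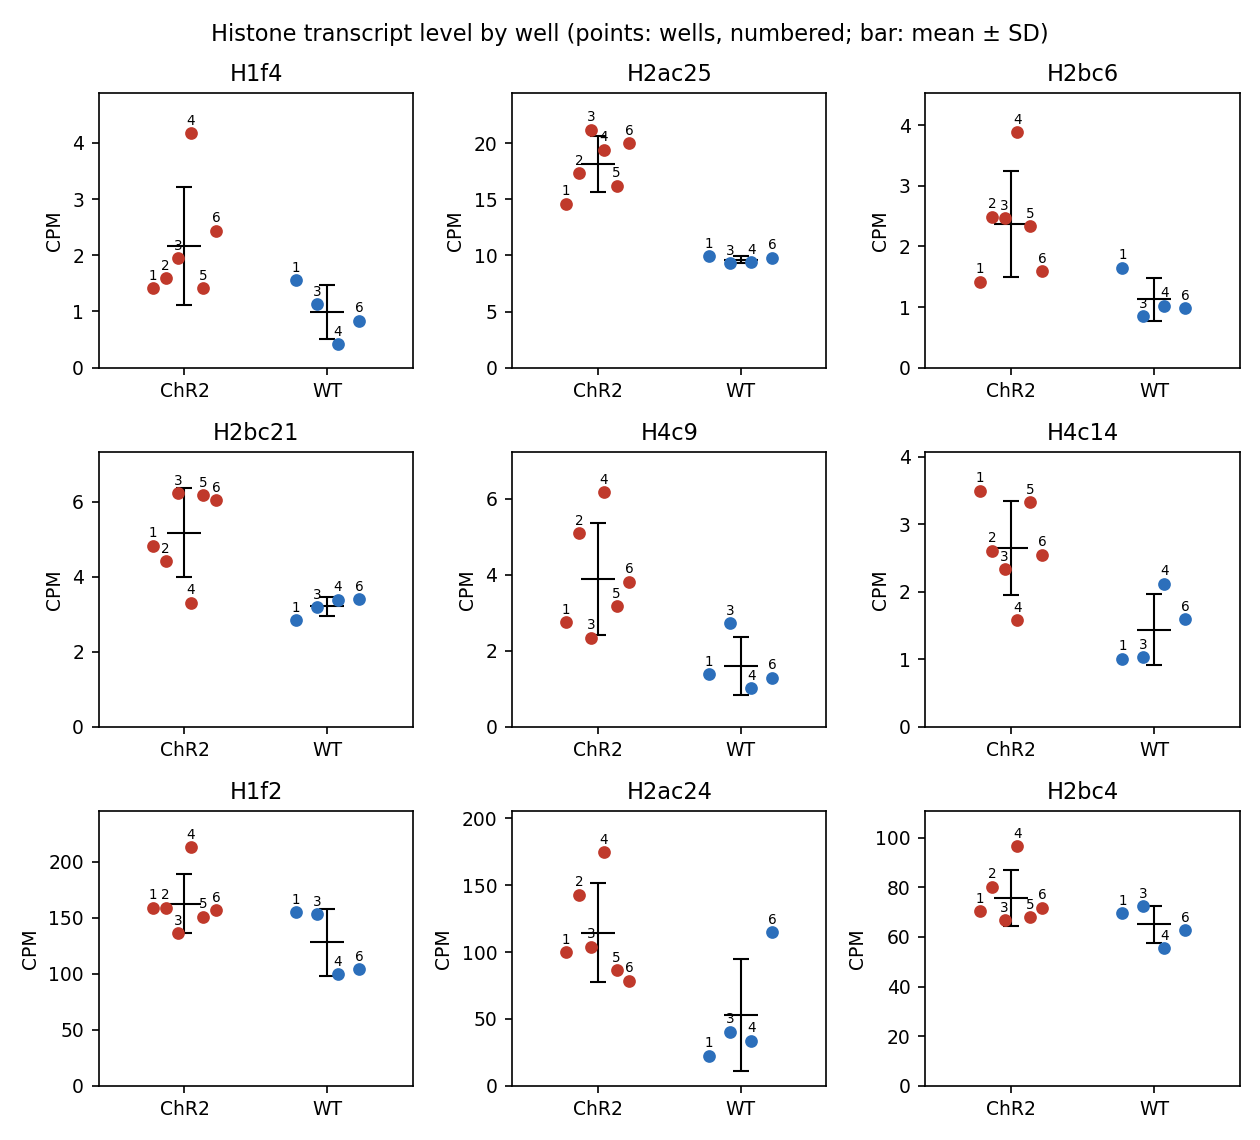
CPM (vertical axes, each from 0) of the 6 called genes and of the 3 most abundant members in the ChR2 wells (red, n = 6) and WT wells 1, 3, 4 and 6 (blue, n = 4). Points are wells with their number, and bars are the mean ± SD. H2ac25 is the only gene whose groups do not overlap, and WT well 6 stands at 115 CPM for H2ac24 while the other WT wells stand at 22.5 to 40.3 CPM.

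**Figure D2:**
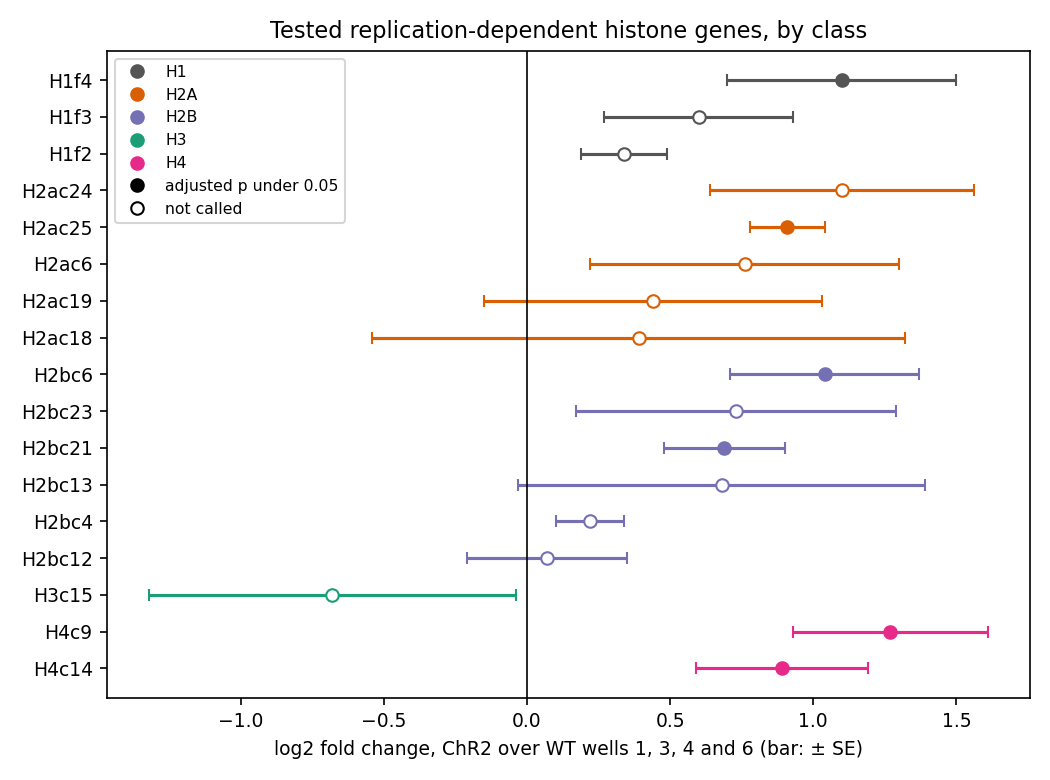
Log2 fold change of ChR2 over WT wells 1, 3, 4 and 6 (horizontal axis, bars ± SE) for the 17 tested members, coloured by class. Filled points are the 6 genes with an adjusted p under 0.05, and H3c15 at -0.68 is the only estimate below 0.

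ChR2 well 4 was the highest of the ChR2 wells for 10 of the 17 tested members, and it also held 447 CPM of the other RNAs without a poly(A) tail, against 25.4 to 61.7 CPM in the 5 other ChR2 wells. Of 193 such RNAs 5 were tested, with 0 called by edgeR, DESeq2 or limma voom (an unadjusted p under 0.05 for 1, 0 and 0 of them), a median log2 fold change of 1.71 and 5 of 5 estimates above 0. The part of that excess in its histone levels was not tested. Without this well the count of called members was 5, with H1f4 lost. Without WT well 3 only 2 members were called, H2ac25 and H4c9, and without each of the other 9 wells the count was 4 or 5.

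Summed over each class, the lines differed most in H2A and H4. The H4 genes together gave 8.08, 9.07, 6.63, 10.8, 8.42 and 9.12 CPM in the ChR2 wells and 4.22, 4.5, 4.16 and 3.94 CPM in the WT wells. These groups did not overlap, and the ratio of the means was 2.06, with 1.96 to 2.16 when 1 well was left out. Most of this sum came from the called genes H4c9 and H4c14, at means of 1.6 and 1.44 of 4.21 CPM in WT. The other 11 H4 genes were under the filter, so the sum largely repeats those calls. The H2A genes together had the same ratio of 2.06, but they overlapped, with WT well 6 at 132 CPM, of which H2ac24 made up 115 CPM. Without that well the H2A ratio was 2.94. The ratios for H1, H2B and H3 were 1.28, 1.23 and 1.46, all with overlap.

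All members together gave 417 ± 77.5 CPM (SD, n = 6) in ChR2 and 284 ± 41.3 CPM (SD, n = 4) in WT, a ratio of 1.47. The wells ran from 364 to 563 CPM in ChR2 and from 226 to 319.9 CPM in WT, without overlap. On the TPM scale the ratio was 1.61 and the groups overlapped, with WT well 6 at 715 TPM above ChR2 wells 5 and 6 at 688 and 645 TPM. Without H1f2, H2bc4 and H2ac24 the remaining 63 members gave 65 ± 8.82 CPM (SD, n = 6) against 38.3 ± 1.23 CPM (SD, n = 4), also without overlap. These 3 genes were singled out after their levels were seen, and no test was made of any sum.

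Genes of DNA replication were often higher in ChR2. Of 46 genes of S phase and replication, all tested, 28 were higher in ChR2 and 1 was lower, with a median log2 fold change of 0.68, against 18.9% higher, 16.3% lower and a median of 0.00 over all genes tested. Uhrf1, which brings DNA methylation to newly copied DNA, rose by 1.34 ± 0.13 (SE), Pold1, a catalytic subunit of a replicative polymerase, by 0.96 ± 0.13, and Rrm2, a subunit of ribonucleotide reductase, by 0.68 ± 0.13 (edgeR, adjusted p = 1.14e-05, 1.26e-04 and 0.00111). Pcna, the sliding clamp, was not called at 0.09 ± 0.10 (edgeR, adjusted p = 0.528). Set against the summed level of these 46 genes, the histone sum came to 24.4 ± 2.96% (SD, n = 6) in ChR2 and 24.5 ± 1.4% (SD, n = 4) in WT on the CPM scale, a ratio of 0.998. On the TPM scale the ratio was 1.21, and the groups overlapped on both. Without H1f2, H2bc4 and H2ac24, which hold most of the histone counts, the CPM ratio was 1.15 (3.85% against 3.34%), also with overlap.

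Of 27 genes of histone pre-mRNA processing and histone gene transcription, 4 were higher (14.8%) and 6 lower, with a median of -0.11. Over all genes tested 18.9% were higher and 16.3% lower with a median of 0.00, so these counts are near the background. Slbp, the stem-loop binding protein, had 36.9 ± 5.8 CPM (SD, n = 6) in ChR2 and 28.5 ± 3.26 CPM (SD, n = 4) in WT and rose by 0.37 ± 0.13 (SE; edgeR, adjusted p = 0.0338), with overlap. Npat and Casp8ap2, which act in histone gene transcription at the histone locus body, gave -0.15 ± 0.12 and -0.11 ± 0.11. Lsm10 and Lsm11, proteins of the U7 particle, gave -0.10 ± 0.11 and 0.29 ± 0.11. Zfp473, another U7-associated protein, and Eri1, an exonuclease that trims the histone end, gave 0.45 ± 0.48 and 0.04 ± 0.10. None of these 6 was called. The members of smallest p were Lsm1, of a complex that promotes decay of messages, which fell by 0.48 ± 0.10, and Nelfe, of the negative elongation factor, which rose by 0.44 ± 0.10 (edgeR, adjusted p = 0.00337 and 0.00359). The 4 higher calls became 1 without ChR2 well 1 or WT well 3, and 2 without ChR2 well 2 or 3 or WT well 1 or 4.

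Of 22 histone chaperones, which carry histones to DNA, 11 were higher (50%) and 2 lower, with a median of 0.31, beside 18.9% higher, 16.3% lower and a median of 0.00 over all genes tested. Chaf1a, of the assembly factor that works at replication forks, rose by 0.93 ± 0.17, Ssrp1, a subunit of FACT, by 0.57 ± 0.10, Asf1b by 0.71 ± 0.22 and Nasp, an H1 and H3-H4 carrier, by 0.32 ± 0.10 (edgeR, adjusted p = 9.78e-04, 6.41e-04, 0.0263 and 0.0229). The 11 became 7 without WT well 4, and the 2 lower calls became 1 without ChR2 well 2, 3, 5 or 6 or WT well 1 or 3.

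Histone variants replace the replication-dependent forms in nucleosomes, and most are expressed through the cell cycle from polyadenylated messages. Of 11 variant genes, all tested, 8 were higher in ChR2 (72.7%) and the other 3 were not called, with a median of 0.48, beside 18.9% higher and a median of 0.00 over all genes tested. The 8 became 5 without WT well 1. H1f0, a linker histone that accumulates in cells leaving the cycle, rose from 319.7 ± 25.2 (SD, n = 4) to 552 ± 58.7 CPM (SD, n = 6), by 0.79 ± 0.10 on the log2 scale (edgeR, adjusted p = 1.12e-04). H2ax, whose phosphorylated form marks DNA breaks and which is known to give both a polyadenylated message and one that ends at a stem-loop, rose by 1.14 ± 0.14 (edgeR, adjusted p = 9.04e-05), and H3f3b, a gene for the replacement form of H3, by 0.57 ± 0.10 (edgeR, adjusted p = 6.13e-04). H3f3a, the other gene for that protein, and H2az1 gave -0.04 ± 0.12 and 0.22 ± 0.15 and were not called (edgeR, adjusted p = 0.841 and 0.257). For H1f0, H2ax and H3f3b the groups did not overlap.

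WT wells 2 and 5 held more histone message than any of the other 10 libraries. All members together gave 4295 CPM in well 2 and 2859 CPM in well 5, against 226 to 319.9 CPM in the other WT wells, which is 15.1 and 10.1 times their mean, and at most 563 CPM in any of the 10. As a share of counts this was 0.301% in well 2 (95% Wilson interval 0.291% to 0.312%) and 0.278% in well 5 (0.272% to 0.284%), where the intervals cover counting error only. On the TPM scale, where 7SL stood at 720002 and 508237 TPM in these wells, the ratios were 3.7 and 8.26: the members summed to 1957 and 4362 TPM, against 1095 TPM in ChR2 well 4, the highest of the 10. The other RNAs without a poly(A) tail were high in the same wells. Their part in the histone levels, and that of how the libraries were made, was not tested.

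The excess was not the same for all classes. H1 stood at 16.1 and 8.62 times the mean of the other WT wells, H2A at 10 and 7.29 times and H2B at 2.31 and 3.09 times. H3 stood at 147 and 191 times that mean, and H4 at 236 and 136 times. The make-up of the histone message shifted accordingly: H3 and H4 made up 10.5% and 35.7% of the members' TPM in well 2 and 18.3% and 28.4% in well 5, against at most 1.3% and 2.88% in any of the other 10 libraries. H2A held 25.6% and 26.7%, against 61.7 ± 4.14% (SD, n = 6) in the ChR2 wells and 47.4 ± 16.5% (SD, n = 4) in the other WT wells, which ran from 31.5% in WT well 1 to 70% in WT well 6.

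**Figure D3:**
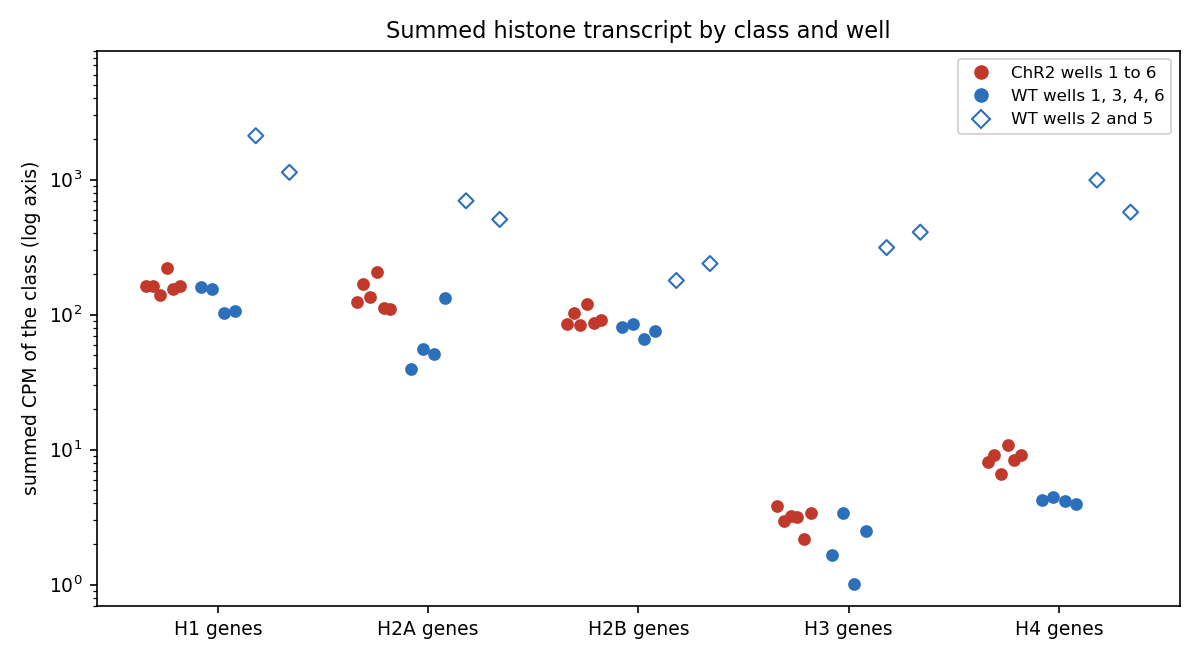
Summed CPM of each histone class (vertical log axis) in every well, with ChR2 wells as red circles, WT wells 1, 3, 4 and 6 as blue circles and WT wells 2 and 5 as open diamonds. For H4 the 4 WT wells lie at 3.94 to 4.5 CPM, the ChR2 wells at 6.63 to 10.8 CPM, and WT wells 2 and 5 at 992 and 574 CPM.

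Single genes differed widely in these wells. Well 2 had 48 members and well 5 had 57 above every one of the 10 libraries, and 47 were above in both. The same counts over all genes are not given here, so these are no result about the family. H1f2 reached 1505 and 658 CPM, 11.8 and 5.14 times the mean of the other WT wells. H1f4, at 0.986 CPM on average in those wells, reached 248 and 198 CPM, and H1f3 216 and 152 CPM. H4c14 reached 139.6 and 40.7 CPM, and H2ac25 111 and 77.6 CPM. H1f4, H1f3 and H4c14 had the highest ratios among the 16 members of at least 1 CPM on average over the 10 libraries.

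Members at or near the floor elsewhere were abundant there. H4c8, at 0.0848 to 0.379 CPM in the other WT wells and 3 to 9 counts in the ChR2 wells, gave 240.3 and 95.6 CPM. Per length it was among the 3 highest members in both wells, at 214 and 249 TPM, beside H1f2 at 285 and 356 TPM. H2ac19 was the other in well 2, at 139.7 TPM, and H4c18 in well 5, at 279.6 TPM. H4c18 had 0 counts in well 2, where its near-copy H4c17 had 83.2 CPM, and H4c17 had 0 in well 5. The sum of the pair was 83.2 and 92.7 CPM. Of the windows of H4c18, 83.2% occur in H4c17, and how reads were split between the copies was not tested. Of the 23 members that never rose above 3 counts in the 10 libraries, 14 did so in well 2 and 19 in well 5, although 3 counts stand for 4.03 and 1.1 CPM there.

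Not all members were high in these wells. Of the 16 members of at least 1 CPM on average over the 10 libraries, 3 had a lower mean in WT wells 2 and 5 than in the other WT wells: H2bc4, H2bc21 and H2ac24. H2bc4, the most abundant H2B message elsewhere, gave 26.9 CPM in well 2 and 37.7 CPM in well 5, from 20 and 103 counts, below the lowest of the 10 libraries at 55.6 CPM. It was the only member below all 10 in both wells. Another 5 members, H2ac1, H2ac23, H2bc1, H2bc24 and H3c14, had 0 counts in both wells and at most 1.7 CPM in any of the 10. H2bc21 gave 1.34 CPM from 1 count in well 2 and 3.66 CPM in well 5, and H2ac24 gave 43 and 44.3 CPM, inside the range of the other WT wells. The models of H2bc4 and H2bc21 hold none of the searched stem-loops, while that of H2ac24 holds one and ends 3 bases beyond it. By model, 32 of the 41 members with the stem-loop letters and 15 of the 25 without were above all 10 libraries in both wells. The share of all genes above the 10 is not given beside these counts.

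**Figure D4:**
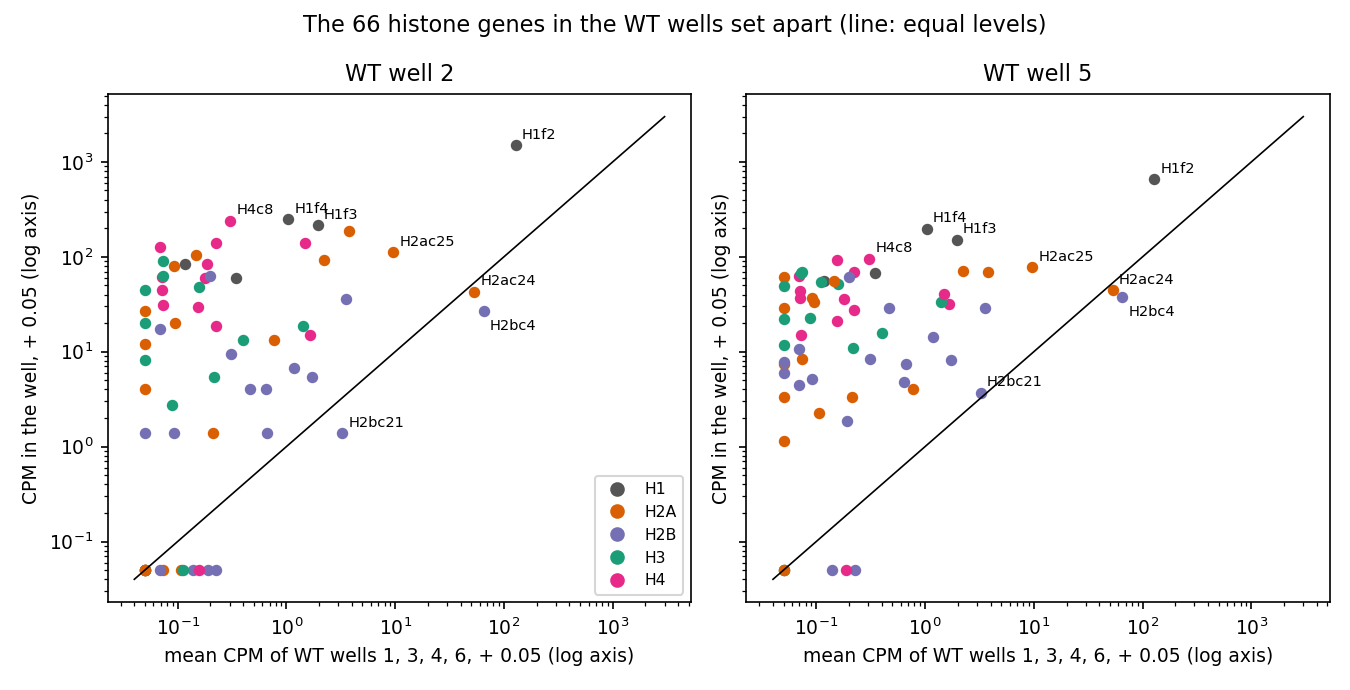
CPM of the 66 members in WT well 2 (left) and WT well 5 (right) against the mean CPM of WT wells 1, 3, 4 and 6, both with 0.05 added and on log axes, coloured by class. The line marks equal levels, and H2bc4 and H2ac24 lie below it in both wells while H1f2 stands at 11.8 and 5.14 times the mean of the other WT wells.

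The choice of wells set the direction for several members. With WT wells 2 and 5 counted among the WT wells, 2 members were called higher, H2bc21 and H2ac24, and H3c15 was called lower, beside 14.0% of 13168 genes called higher and 14.1% called lower. H1f4, H2ac25, H2bc6, H4c9 and H4c14 then had estimates below 0, and none of these 5 was called (edgeR, adjusted p from 0.0552 to 0.713). When the other RNAs without a poly(A) tail were removed first, H1f4 was called lower in ChR2, at a log2 fold change of -4.91 (edgeR, adjusted p = 0.0492), the reverse of its call over the 10 libraries.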

How the data were processed

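Wells were grouped by genotype and numbered as in their titles. Estimated counts per gene and TPM were deposited by the authors in 1 table each, with symbols and Ensembl identifiers. Tools named in the submitters' processing notes are Salmon, STAR, bedtools 2.25.0 and BWA 0.7.12-r1039, and the builds GRCm39, mm10 and hg19. Their roles are not given in the sources used here.

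Estimated counts were rounded and filtered with filterByExpr (minimum count 10 in the 10 libraries), scaled by TMM and tested with edgeR 4.0.16 (quasi-likelihood, robust, R 4.3.3) with Benjamini-Hochberg adjustment over all genes tested and 0.05 as the threshold. The fit was tested on simulated data. CPM of WT wells 2 and 5 were scaled against the same reference library. Reads had no molecular identifiers and the libraries had 14 PCR cycles, so copies of the same molecule could be counted more than once. CPM and the floor of 3 counts carry this error besides counting error, and also that of splitting reads between similar genes. Other settings used limma 3.58.1 and DESeq2 1.42.0. Shared 50-base windows were counted in GENCODE M21. The length implied by the deposited counts and TPM fell short of the M21 length by 92 to 193 bases in 58 members with 1 model. No same-line pair of libraries agreed within sampling noise (chi-square per degree of freedom at least 5.09).

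Members, gene lists, the wells set apart and the tests were chosen with earlier results of these data known. Genes named were the called members, the 2 of highest TPM in each class, those of highest and lowest ratio or highest TPM in WT wells 2 and 5, and fixed genes and the 2 of smallest p in each list. Figures were drawn with matplotlib 3.10.9.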

Additional observations from a re-analysis of the deposited data

Results flagged for a closer look

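ChR2 well 4 lay far from the other ChR2 wells in 3 of 46 groups of values examined, where chance gives about 1 in 20. The number found is thus close to that of chance. The values were H1f2 at 213 CPM (next well 159 CPM), H1f4 at 4.17 CPM (next 2.44 CPM) and summed H1 genes at 223 CPM (next 164 CPM). H1f2 makes up most of that sum, so the flags of H1f2 and of the H1 sum are not separate observations. ChR2 well 4 also held 362 CPM of 7SL, against 17.6 to 50.6 CPM in the other ChR2 wells. The part of 7SL in these levels was not tested.

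WT wells 2 and 5, which stand outside the comparison, held summed histone messages of 4295 and 2859 CPM, above the 226 to 319.9 CPM of the other WT wells. Their 7SL stood at 352739 and 86115 CPM, against 16.8 to 30.1 CPM there.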

How the results depend on the processing

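With all 12 libraries, 2 members were called higher and 1 lower, and 2 and 2, with H1f4 called lower, when other RNAs without a poly(A) tail were removed first. The shares over all genes after that removal are not given here. The log2 fold changes of H1f4, H2ac25, H2bc6, H4c9 and H4c14 turned to -4.92, -0.76, -0.38, -0.82 and -3.02, and to -4.91, -0.75, -0.37, -0.81 and -3.02 with that removal. The ratio of ChR2 to WT sums became 0.302 for all members, 0.267 for H1, 0.579 for H2A, 0.782 for H2B, 0.0257 for H3 and 0.0329 for H4, and 0.184 for the histone sum per S-phase sum. Called higher were then 2 processing genes and, with or without the removal, 4 variants, and 4 of the other RNAs without a poly(A) tail were called lower.

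With the replicate number as a block, 1 member (H2ac25) was called of the 6, and 3008 genes in all against 4748, 13.4% of the tested genes being called higher. Processing genes called higher fell to 2, and chaperones to 6 higher and 1 lower. The labels do not say whether same-numbered wells of the lines were handled together. Over all tested genes such wells deviated together with correlations of 0.00125, 0.0886, -0.0627 and 0.0559. These values do not show whether the wells form pairs for single genes.

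With limma on log2(TPM + 1), log2(TPM + 0.1) and log2(TPM + 1) without a filter, 5, 5 and 4 members were called higher, but H1f4, H2bc6, H2bc21 and H4c14 lost their calls in all 3, while H4c18 gained one in all 3, H2bc27 and H4c8 in the first 2 and H2ac24 in the last. H1f4 also lost its call with limma voom and H4c14 with edgeR without a filter (adjusted p = 0.0734 and 0.0538), where H2ac24 and H3c10 gained one. In these 3 fits on TPM, chaperones called were 4, 4 and 3 higher and 1, 1 and 1 lower, and processing genes 1, 1 and 0 higher and 2, 2 and 0 lower. The fit without a filter called 2430 genes, 16 S-phase genes and 5 variants higher. Processing genes called higher were 1 with limma voom and 2 with edgeR without a filter, and upper-quartile scaling left 1 chaperone lower. Summed TPM gave an H3 ratio of 1.89, a histone per S-phase ratio of 1.21, and 3.7 and 8.26 for WT wells 2 and 5, and plain CPM 10.4 for WT well 2. The cause of these shifts was not tested, and the shares of all genes called higher in these fits are not given beside the counts of members.

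Leaving out 1 well gave 2 to 5 members called higher, 1 to 4 processing genes, 7 to 12 chaperones higher and 1 to 3 lower, 5 to 8 variants, and ratios of 1.8 to 2.94 for H2A and 1.24 to 1.81 for H3. Of 847 values of named genes under other settings, 755 kept direction and side of the threshold, 71 lost the call, 11 gained one and 10 turned. At 1061068 counts, WT well 2 resolves no level under 4.03 CPM.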
